A study of Mus musculus with 17 samples.

Results

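The Rfx (regulatory factor X) family is a group of transcription factors that share a winged-helix DNA-binding domain. The genes described here are the 8 rows of the count table with the symbols Rfx1, Rfx2, Rfx3, Rfx4, Rfx5, Rfx7, Rfxank and Rfxap, out of 24498 symbols in all. Rfxank and Rfxap encode partners of Rfx5 and do not belong to that family. The 8 rows, called members or Rfx genes below, were chosen by symbol and not by a measured value, with earlier results of these data known. All 8 passed the filter on low counts and were tested in every comparison. On GRCm38 (GENCODE vM21) the protein-coding genes lie at chr8:84066834-84096992 (Rfx1), chr17:56775897-56831013 (Rfx2), chr19:27761721-28011166 (Rfx3), chr10:84756062-84906538 (Rfx4), chr3:94954075-94961561 (Rfx5), chr9:72532240-72622937 (Rfx7), chr8:70130794-70139154 (Rfxank) and chr3:54803115-54807791 (Rfxap). The 2 other family genes of the table were Rfx6, which had 0 counts in all 17 libraries, and Rfx8, which had 3 to 15 counts.

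Poly(A) RNA was sequenced from slices of mouse dorsal hippocampus, a region that holds the CA1, CA2 and CA3 fields and the dentate gyrus. The animals were wild type (WT) or ACSS2KO (KO), a constitutive knockout of Acss2, whose product turns acetate into acetyl-CoA. Mice aged 6 months were injected in the hippocampus with either PBS or Tau, a sarkosyl-insoluble tau fraction purified from Alzheimer disease cortex. By the study's methods, molecular work was done 6 months after injection. Males of both genotypes received PBS or Tau, which made 4 groups with n = 3 libraries each. The female libraries were all from Tau mice, with n = 3 for KO and n = 2 for WT, so there were 6 groups in all. Female libraries were numbered 314 to 341 and male libraries 711 to 793, so sex cannot be told apart from anything else that went with that numbering. The study's methods name male mice for this assay, so female sex here comes from the labels and was not checked. The study counted fewer KO tau animals in this assay than the table holds; every library of the table entered the fits here.

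Totals were 14183131 to 22463635 counts per library, and 0 of the 136 pairs of libraries were identical. Acss2 was at 3.07 to 8.81 CPM (counts scaled to a common library total) across all 9 KO samples, against 44.0 to 54.6 CPM for the 8 WT samples, so each library matched its genotype label. All 10 dentate granule cell markers were detected, and their summed level ran from 254 to 741 CPM. Prox1, a transcription factor gene that marks dentate granule cells in the hippocampus, ranged from 8.83 CPM in male KO PBS 752 to 61.4 CPM in male KO PBS 751, a 6.96-fold range within 1 group. Prox1 was also low in male KO Tau 712 (9.59 CPM) and 713 (15.1 CPM) and high in male KO Tau 711 (51.5 CPM). Calls that were lost or gained without one of these libraries are said to be so.

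Rfx proteins bind the X box, an imperfect inverted repeat whose arms read close to GTTGCC. Rfx1, Rfx2, Rfx3 and Rfx4 can pair with one another, and Rfx2 and Rfx3 are known as activators of genes that build cilia. Rfx5, Rfxank and Rfxap form a separate complex that sits on the X box of MHC class II promoters, and loss of any of them abolishes MHC class II expression. Rfx4 is known from the patterning of the dorsal midline of the brain, and Rfx7 from lymphocytes and the p53 response.

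X-box letters were present in the family's own promoters, and the 3 sites below are shown because they are the only matches among the members. The searches, on both strands of the 300 bases from 250 before to 50 after each start site in RefSeq (GRCm38.p6), were chosen after the sequences had been seen. The arm GTTGCC was in 3 of 8 member promoters (37.5%) and in 4111 of all 32851 promoters (12.5%); Rfxap had no entry in the promoter table, and Rfx4 had 2. The back-to-back pair GCAACNGTTGCC, which contains that arm, was in 2 member promoters and in 10 of all promoters (0.0304%). The facing pair GTTGC, 3 to 5 bases, GCAAC was in 1 member promoter and in 144 of all promoters (0.438%). The pair is in capitals in each line, the letters follow the gene's strand, and a match says nothing about whether a factor binds there.
Rfx1 (chr8:84066822-84066851, plus strand, pair starting 5 bases before the start site): gggtgggtaGCAACAGTTGCCccggtgagg
Rfx2 (chr17:56831103-56831131, minus strand, pair starting 116 bases before the start site): ggtaaccGTTGCCGGGCGCAACgccccgc
Rfx3 (chr19:28011121-28011150, minus strand, pair starting 26 bases after the start site): tgagttataGCAACCGTTGCCttgtgaatc

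The arm was also in 10 of 24 promoters (41.7%) of a list of core intraflagellar transport and BBSome genes, in 7 of 23 (30.4%) of a list of motile cilia genes and in 3 of 19 (15.8%) of a list of MHC class II genes and partners of the Rfx5 complex. The last list also held some MHC class I genes. The back-to-back pair of Rfx1 and Rfx3 was in 0 promoters of these lists, and the facing pair of Rfx2 was in 3 of the 23 motile cilia promoters (13%) and in 0 of the other 2 lists.

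Compared per kilobase of exon, Rfxap was the most abundant member and Rfx2 the least. The mean level over the 17 libraries was 13.8 ± 1.70 (SD) CPM per kb for Rfxap, which encodes the Rfx5-associated protein. Next came Rfx3 at 4.66 ± 1.75, Rfx5 at 3.79 ± 0.520, Rfx4 at 3.57 ± 0.798 and Rfx1 at 3.35 ± 0.503 CPM per kb, and neighbours in this order differed by less than the larger of their SDs. Rfx7 at 1.99 ± 0.210 and Rfxank, the ankyrin-repeat partner of Rfx5, at 1.95 ± 0.222 CPM per kb did not differ beyond their SD either, although on the longest annotated transcript Rfx7 (3.81 CPM per kb) was above Rfxank (2.15). Rfx2 was at 0.434 ± 0.109 CPM per kb, which came from 23 to 88 counts per library. On the longest annotated transcript instead of all exons, Rfx1 (5.17 CPM per kb) moved ahead of Rfx4 (4.78) and Rfx5 (4.68), while Rfxap (14.3) stayed first and Rfx2 (0.767) last.

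**Figure D1:**
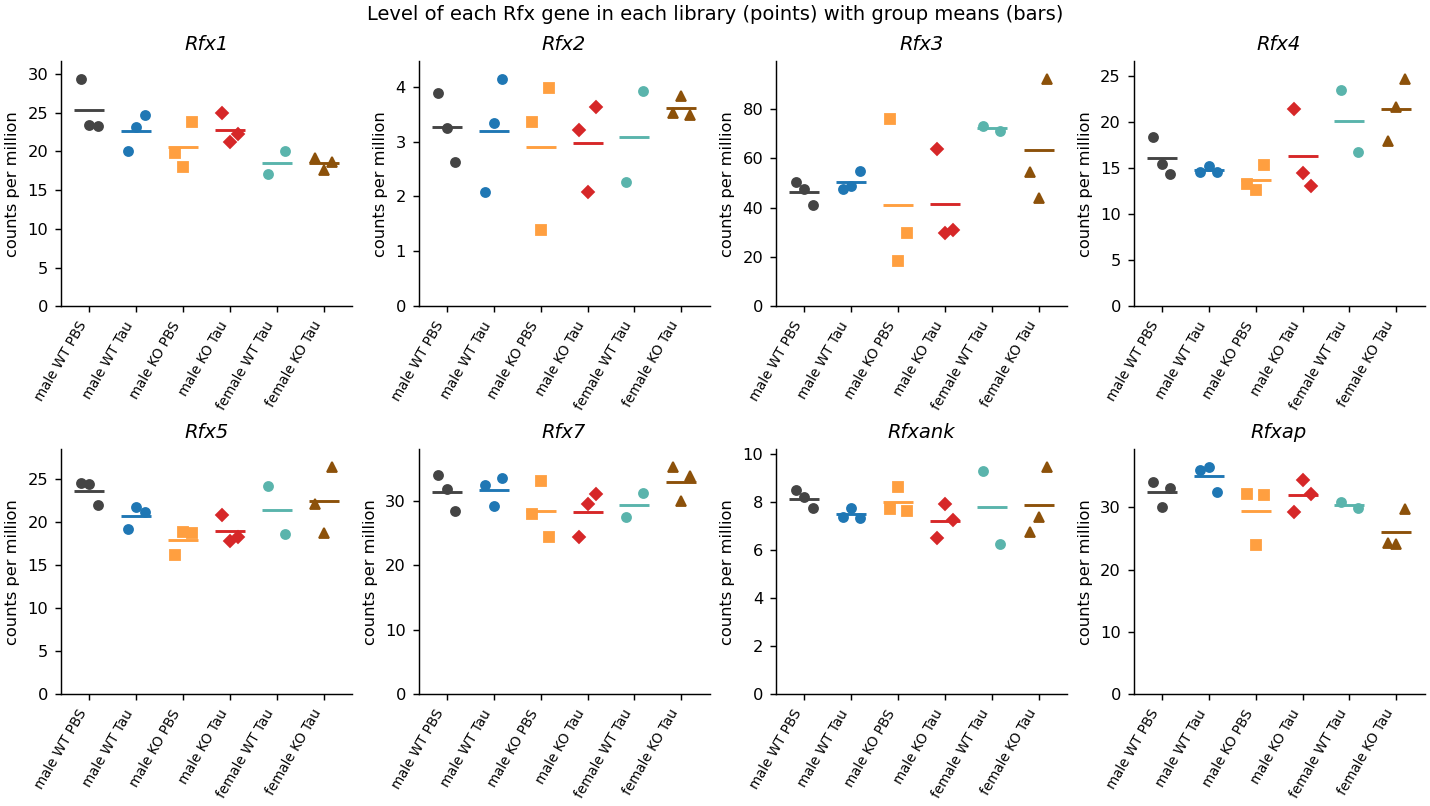
Level of each of the 8 Rfx genes in CPM (linear axis from 0) in each of the 17 libraries; points are libraries, horizontal bars are the means of the 6 groups. Rfx3 spread from 18.2 to 75.8 CPM within male KO PBS, while Rfx7 stayed between 24.3 and 35.2 CPM over all libraries.

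Rfx3 was the member that varied most between libraries, and it varied within groups. It was at 50.5, 47.7 and 41.1 CPM in male WT PBS and at 47.5, 48.8 and 54.8 CPM in male WT Tau. In male KO PBS it was at 75.8, 18.2 and 29.7 CPM, and in male KO Tau at 63.8, 29.7 and 30.8 CPM. In female WT Tau it was at 73.2 and 71.2 CPM and in female KO Tau at 54.7, 44.0 and 92.2 CPM. Each KO group thus held libraries both above and below its WT counterpart, and the groups overlapped in each genotype comparison. The highest library was 5.07-fold above the lowest, against 1.44-fold to 2.97-fold for the other members. The SD of log2 CPM around group means was 0.55 for Rfx3, 0.49 for Rfx2 and 0.12 to 0.23 for the rest.

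Rfx3 followed Prox1 from library to library. Over deviations from group means in the 17 libraries, Pearson's r was 0.937 (exact permutation p = 0.00167, two-sided) and Spearman's rho was 0.880 (exact permutation p = 0.00225). In 14 of the 17 libraries Rfx3 and Prox1 deviated from their group means in the same direction. Without male KO PBS 751 and male KO Tau 711, the 2 libraries whose deviation of Prox1 from its group mean lay farthest from the median deviation, r was 0.833 (exact permutation p = 0.0150). Without male KO PBS 752 and male KO Tau 712, the 2 libraries with the lowest Prox1, it was 0.922 (exact permutation p = 0.0110). With each library left out in turn, r ran from 0.9005 to 0.952. Within the 12 male libraries r was 0.942 (exact permutation p = 0.00772), and the 5 female libraries were too few for a value of their own. The ratio of Rfx3 to Prox1 ranged 2.70-fold, from 1.15 in male WT Tau 772 to 3.09 in male KO Tau 712.

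In a fit of every gene on the log2 CPM of Prox1 with the 6 group means, Rfx3 had a slope of 0.63 (SE 0.07, adjusted p = 7.65e-05 by edgeR's quasi-likelihood test with Benjamini-Hochberg adjustment). A slope of 1 would mean that a gene doubled when Prox1 doubled. Rfx3 was the only member with a called slope, 1 of 8 or 12.5%, which is close to the 13.6% of all 15593 genes called in that fit. Among those genes it ranked 16 by slope over its error. Across the 17 fits that left out 1 library each, its slope ran from 0.51 to 0.70 with adjusted p of 0.00171 or less, and the slope of Rfx3 on Prox1 without male KO PBS 751 and 752 together was 0.53 (adjusted p = 0.00527). On the mean log2 CPM of the other dentate granule markers its slope was 0.73 (SE 0.06, adjusted p = 2.67e-05), where 6.78% of genes were called, and r ran from 0.930 to 0.977 with each library left out in turn. Those markers did not all follow Prox1. Pdzd2 had a slope of -0.33 on it (adjusted p = 0.135 by edgeR) and Stxbp6 of 0.22 (adjusted p = 0.231 by edgeR). The rest had called positive slopes. In tissue RNA, fewer dentate granule cells and less RNA per cell cannot be told apart.

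No other member had a called slope with all libraries. Slopes on Prox1 were 0.30 for Rfx2 (adjusted p = 0.193), 0.15 for Rfx4 (adjusted p = 0.137), 0.08 for Rfx1, 0.05 for Rfxap, 0.04 for Rfx5, -0.04 for Rfxank and -0.08 for Rfx7. Their r with Prox1 ranged from -0.434 for Rfx7 to 0.577 for Rfx2, and exact permutation p ranged from 0.106 to 0.480 over these 7 genes. Without male KO PBS 751 the slope of Rfx4 on Prox1 was 0.24 and passed (adjusted p = 0.0441), and the Pearson r of Rfx5 and Prox1 was 0.528 (exact permutation p = 0.0307). Without male KO Tau 711 they were 0.049 and -0.0459.

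**Figure D2:**
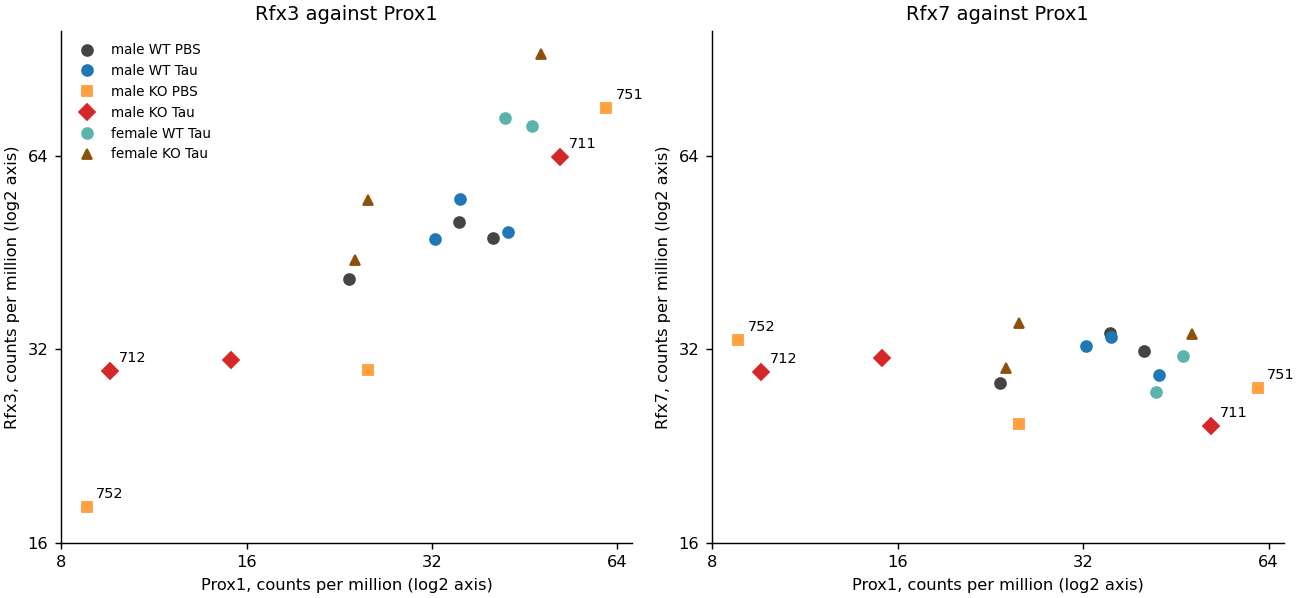
Rfx3 (left) and Rfx7 (right) against Prox1 in the 17 libraries, both in CPM on log2 axes; symbols are the 6 groups and 4 libraries are numbered. Rfx3 rose with Prox1 within groups (r 0.937), whereas Rfx7 did not (r -0.434, exact permutation p = 0.298).

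Rfx3 moved opposite to markers of 2 other lists. Its slope was -0.94 (SE 0.19, adjusted p = 0.00297) on the neocortex score, the mean log2 CPM of 6 neocortical markers, where 17.7% of genes were called; with each library left out in turn the slope of Rfx3 on the score of neocortex ran from -1.09 to -0.66 and stayed called. On the score of 6 inhibitory neuron markers it was -1.52 (SE 0.34, adjusted p = 0.00691), where 17.6% of genes were called. The latter call was lost without male KO PBS 752 (-1.22, adjusted p = 0.0574). The neocortex score itself ranged from 4.42 to 5.82 in male KO PBS and from 5.15 to 5.24 in male WT PBS; its part in the values of Rfx3 was not tested. Rfx3 had an r of -0.04 with the score of ependyma and 0.127 with that of choroid plexus, which are tissues of motile cilia and of ventricle walls.

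Among the 15593 other genes of the 17-library fit, those whose deviations were most like Rfx3 were Tdo2 (r 0.971), which is on the dentate granule marker list, Ccdc85a (0.970) and Pm20d2 (0.969). These are descriptions over 17 libraries of shared groups, and the rank of a gene among so many is no test.

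Rfx2 and Rfx4 had called slopes on other marker scores, and each of these calls was lost without at least 1 library. Rfx2 was at 3.89, 3.25 and 2.63 CPM in male WT PBS, at 2.09, 3.34 and 4.13 CPM in male WT Tau, and at 3.35, 1.39 and 3.98 CPM in male KO PBS. In male KO Tau it was at 3.22, 2.08 and 3.62 CPM, in female WT Tau at 2.26 and 3.92 CPM, and in female KO Tau at 3.53, 3.83 and 3.48 CPM. Its lowest library, male KO PBS 752, was also the lowest in Prox1. Rfx2 had a slope of 0.63 (SE 0.17, adjusted p = 0.0249) on the score of 5 CA3 pyramidal cell markers, where 11.8% of genes were called, and of 0.81 (SE 0.21, adjusted p = 0.0272) on that of 5 CA2 markers, where 9.2% were. Neither call held without male KO PBS 752, where the slopes were 0.49 (adjusted p = 0.228) and 0.65 (adjusted p = 0.356). The CA2 call was lost without 5 of the 17 libraries taken singly (male KO PBS 751 and 752, male KO Tau 712, female WT Tau 331 and 341). The slope of Rfx2 on the score of CA3 pyramidal cells lost its call without 2, the other being male KO Tau 712 (0.67, adjusted p = 0.0616). On the CA1 score the slope of Rfx2 was 0.55 (SE 0.17, adjusted p = 0.0512 by edgeR). On the dentate granule score it was 0.35 (SE 0.17, adjusted p = 0.232 by edgeR), and neither was called.

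Rfx4 was at 18.4, 15.5 and 14.3 CPM in male WT PBS, at 14.6, 15.2 and 14.6 CPM in male WT Tau, and at 13.2, 12.6 and 15.4 CPM in male KO PBS. In male KO Tau it was at 21.4, 14.4 and 13.0 CPM, in female WT Tau at 23.5 and 16.7 CPM, and in female KO Tau at 17.98, 21.6 and 24.6 CPM. Females were thus mostly higher, and male KO Tau 711 stood apart from its group. The slope of Rfx4 on the score of 7 astrocyte markers was 0.82 (SE 0.16, adjusted p = 0.00526), where 18.2% of genes were called, and r was 0.869 (exact permutation p = 0.00296). Without male KO Tau 711 the slope of Rfx4 on the score of astrocytes was 0.83 with an SE of 0.33 and no longer passed (adjusted p = 0.211), and 141 genes were called in place of 2839. The summed level of those markers was 3426 to 6680 CPM in male KO Tau and 6996 to 7494 CPM in female KO Tau.

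**Figure D3:**
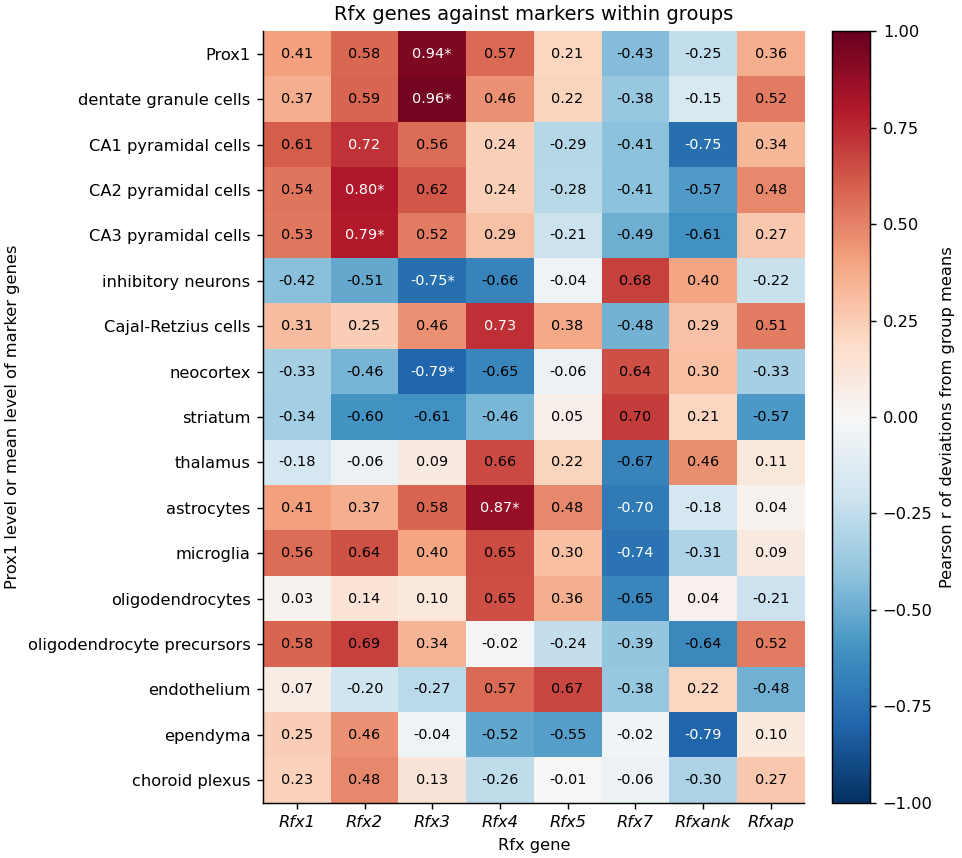
Pearson's r between each Rfx gene (columns) and Prox1 or the mean log2 CPM of each of 16 marker lists (rows), from deviations from group means over 17 libraries; colour runs from -1 (blue) to 1 (red) and a star marks a slope called over all genes. Stars stand on Rfx3 with Prox1, dentate granule, neocortex and inhibitory neuron markers, on Rfx2 with CA2 and CA3 markers and on Rfx4 with astrocyte markers.

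Of the 128 pairs of a member and a marker list, 21 had an exact permutation p under 0.05 and 6 had a called slope. The share of all genes with such a permutation p was not computed. Called slopes made up 0.0192% to 18.2% of all genes, depending on the score. Rfx7 had r of -0.736 with microglia and -0.704 with astrocytes and 0.682 with inhibitory neurons, and Rfxank had r of -0.790 with ependyma and -0.753 with CA1 pyramidal cells, yet none of these slopes passed over all genes. Rfx4 had the smallest exact permutation p of all 128 pairs, 0.000129, with the score of 6 Cajal-Retzius cell markers (r 0.731), yet that slope was not called (adjusted p = 0.268 by edgeR) and 2 of those markers, Lhx1 and Lhx5, were at 0 in 5 and 2 libraries. Rfx5 had its highest r with endothelium (0.666, exact permutation p = 0.0127), and that slope was not called either. The genes most like Rfx5 were Alas2 (r 0.941), the red cell enzyme that starts haem synthesis, Gpr146 (0.908) and Cdk15 (0.876).

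The members did not move as a block. Of the 28 pairs of members, 16 had a positive r, and the values ran from -0.651 for Rfx4 with Rfx7 to 0.814 for Rfx1 with Rfx2. Within the complex, r was 0.446 for Rfx5 with Rfxank, -0.243 for Rfx5 with Rfxap and 0.05 for Rfxank with Rfxap.

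Across the 11 comparisons of groups, no member differed by genotype or by Tau in edgeR's quasi-likelihood test, and DESeq2 on the same libraries called 0 members in those comparisons too. Outside the comparison of sexes, the 8 members in 10 comparisons gave 2 values with an unadjusted edgeR p under 0.05, both of Rfx5. They were in male KO PBS and male KO Tau against male WT PBS, where 4.42% and 6.33% of all genes had such a p. Called genes were 0% in male WT Tau against male WT PBS, 0.00662% in each of the comparisons of male KO PBS or male KO Tau with a WT group, 0% in male KO Tau against male KO PBS, and 0% in the interaction and in the average of Tau against PBS. They were 0.00649% in female KO Tau against female WT Tau, 0% in the sex by genotype interaction and 0.00641% in KO against WT over 3 strata. The 1 called gene in each comparison of KO with WT was Acss2.

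For Rfx2, Rfx3 and Rfx4, no average difference by genotype exceeded its error. In KO against WT, averaged over male PBS, male Tau and female Tau, the fitted log2 fold change was -0.17 for Rfx3 (SE 0.25, adjusted p = 0.987). It was 0.026 for Rfx2 (SE 0.21, adjusted p = 0.997) and 0.04 for Rfx4 (SE 0.10, adjusted p = 0.994). The 95% interval for Rfx3 ran from -0.69 to 0.35. Per stratum, the log2 fold change of Rfx3, KO minus WT, was -0.11 in male PBS, -0.26 in male Tau and -0.15 in female Tau, with SE of 0.44, 0.44 and 0.33. As differences of mean log2 CPM, which weight each library equally, they were -0.37, -0.35 and -0.20, with a mean of -0.31 (exact permutation p = 0.24, two-sided, labels permuted within strata). With Prox1 as a covariate the log2 fold change of Rfx3 in KO against WT averaged over 3 strata was 0.064 (SE 0.099), and the log2 fold change of Rfx3 in male KO Tau against male WT Tau was 0.18 (adjusted p = 0.782).

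Among the settings run, Rfx3 passed a test by genotype only where male KO Tau 711 was left out, the library of that group with 51.5 CPM of Prox1. DESeq2 on the 5 remaining libraries gave Rfx3 a log2 fold change of -0.62 (SE 0.13, adjusted p = 8.09e-05) for male KO Tau over male WT PBS, where 7.13% of genes were called. Against male WT Tau it was -0.72 (SE 0.12, adjusted p = 4.32e-07), where 9.3% of genes were called. The genes called were 1029 and 1378. The study, which counted fewer KO tau animals than the table holds, reported the same totals and a decrease of Rfx3 in KO tau mice. It also described lower Rfx5 in those mice. In its single nuclei it saw no decrease of Rfx3, Rfx5 or Rfx7, which it called likely due to few transcripts. In the DESeq2 fits without male KO Tau 711, Prox1 differed by -1.42 and -1.56 (adjusted p = 5.09e-06 and 4.55e-11), and Rfx3 was the only member called. Rfx5 differed by -0.39 (SE 0.14, adjusted p = 0.0550) and -0.19 (SE 0.14, adjusted p = 0.508) in these DESeq2 fits. At equal Prox1 the log2 fold changes of Rfx3 were -0.27 (SE 0.30) and -0.63 (SE 0.45), and DESeq2 called neither (adjusted p = 1.00 for both). Both remaining KO Tau libraries were below every WT library of these fits in Prox1. The lowest WT values were 23.4 CPM in male WT PBS and 32.4 CPM in male WT Tau. The fits at equal Prox1 thus cannot tell Prox1 from group. By edgeR with male KO Tau 711 left out of the 12 male libraries, the change of Rfx3 against male WT PBS was -0.62 and did not pass.

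**Figure D4:**
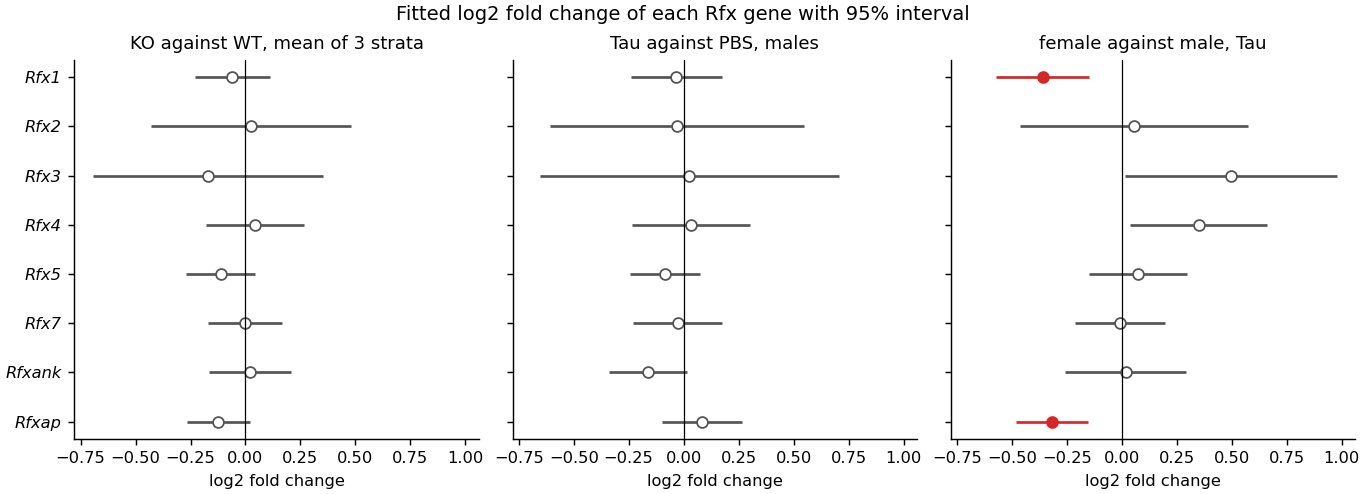
Fitted log2 fold change (edgeR) of each Rfx gene with its 95% interval in KO against WT averaged over 3 strata (17 libraries), in Tau against PBS averaged over genotypes (12 male libraries), and in female against male under Tau (11 libraries). Filled red points passed over all genes; these were Rfx1 at -0.36 and Rfxap at -0.32 in the comparison of sexes.

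Rfx5, the DNA-binding subunit of the MHC class II complex, was higher in all male WT PBS libraries than in the 3 other male groups. There was no adjusted call. Rfx5 was the 1 member of 8 without overlap in each of these comparisons. The share of all genes without overlap was not computed, and 3 libraries against 3 reach an exact permutation p of 0.1 at best. Rfx5 was at 24.5, 24.4 and 22.01 CPM in male WT PBS and at 19.3, 21.8 and 21.2 CPM in male WT Tau. It was at 16.1, 18.9 and 18.7 CPM in male KO PBS and at 20.9, 17.8 and 18.3 CPM in male KO Tau. The log2 fold changes against male WT PBS were -0.20 for male WT Tau (SE 0.10), -0.35 for male KO PBS (SE 0.10, edgeR adjusted p = 0.999) and -0.31 for male KO Tau (SE 0.10, edgeR adjusted p = 0.783). These differences share their control libraries. In females, which had no PBS libraries here, Rfx5 was at 24.2 and 18.6 CPM in WT Tau and at 22.1, 18.8 and 26.4 CPM in KO Tau. The log2 difference was 0.12 (SE 0.15, edgeR adjusted p = 0.997). The difference between the male and female effects under Tau was 0.23 (SE 0.20, adjusted p = 0.978), and that between the male effects under Tau and PBS was 0.24 (SE 0.15, adjusted p = 0.996).

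Rfxank had a lower mean under Tau in both male genotypes, without an adjusted call. It was at 8.49, 8.21 and 7.76 CPM in male WT PBS against 7.39, 7.78 and 7.33 CPM in male WT Tau, and at 7.71, 8.64 and 7.64 CPM in male KO PBS against 6.50, 7.92 and 7.25 CPM in male KO Tau. The groups overlapped in both genotypes. The mean difference of log2 CPM was -0.16, with an exact permutation p of 0.01 (two-sided, labels permuted within genotype), where the smallest value possible was 0.005. With each of the 12 libraries left out in turn, the exact permutation p stayed at 0.035 or less. In the fit over all genes the change was -0.16 (SE 0.08, adjusted p = 0.888).

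Rfxap had a lower mean in KO in all 3 strata, without an adjusted call, and the log2 differences were -0.10, -0.11 and -0.18. The mean difference was -0.13 with an exact permutation p of 0.0408 (two-sided, labels permuted within strata), and -0.10 (exact permutation p = 0.0918) after the slope on Prox1 was removed. The exact permutation p was above 0.05 without any of 11 of the 17 libraries, and reached 0.0985 without male KO PBS 752. In the fit over all genes it was -0.12 (SE 0.07, adjusted p = 0.987). It was at 24.3, 24.1 and 29.7 CPM in female KO Tau and at 30.9 and 29.8 CPM in female WT Tau, which did not overlap. It was the 1 member of 8 without overlap there, and the share of all genes without overlap was not computed. In males Rfxap ran from 24.0 to 34.3 CPM in KO and from 30.0 to 36.4 CPM in WT, which overlapped. Rfxank and Rfxap were the 2 members with a p under 0.05 among 16 such permutation tests, 8 members by 2 factors, and neither passed over all genes. The share of all genes with such a permutation p was not computed. An unadjusted edgeR p under 0.05 was reached by 5.38% of genes for Tau averaged over male genotypes. For KO against WT averaged over 3 strata, 4.18% of genes reached it.

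Rfx1 and Rfxap were lower in libraries labelled female than in those labelled male under Tau. Rfx1 was at 17.02 and 20.1 CPM in female WT Tau and at 19.2, 17.6 and 18.6 CPM in female KO Tau, against 20.0, 23.2 and 24.8 CPM in male WT Tau and 24.9, 21.3 and 22.3 CPM in male KO Tau. Its log2 fold change was -0.36 (SE 0.10, adjusted p = 0.0239 by edgeR) and that of Rfxap -0.32 (SE 0.07, adjusted p = 0.0159 by edgeR). The ranges of the sexes overlapped for both genes. The 2 called members of 8 stand beside 3674 called genes of 15419, or 23.8%. Rfx3 (0.50, SE 0.22, adjusted p = 0.116) and Rfx4 (0.35, SE 0.14, adjusted p = 0.0914) were the members with the largest positive values.

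These calls depended on single libraries. The call of Rfx1 was lost without any of 6 of the 11 libraries (324, 325, 331, 713, 772 or 773), with adjusted p of 0.0515 to 0.113, and that of Rfxap without female WT Tau 331 (-0.32, adjusted p = 0.0668). Without male KO Tau 711, Rfx3 (0.75, adjusted p = 0.00387) and Rfx4 (0.49, adjusted p = 0.00422) passed as higher in females. With the dentate granule score as a covariate Rfx3 passed as well (0.38, adjusted p = 0.0192), and with Prox1 it did not (0.31, adjusted p = 0.0713). The astrocyte score was 8.74 to 9.07 in females and 7.94 to 8.82 in males under Tau, and the inhibitory neuron score was 5.94 to 6.36 in females and 6.10 to 7.04 in males. The part of these tissue differences in the Rfx values was not tested.

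Rfx7 showed no called difference and had the smallest ratio of highest to lowest library, 1.44, from 24.3 to 35.2 CPM. Its largest fitted value was the sex by genotype interaction under Tau, 0.36 (SE 0.19, adjusted p = 0.978).

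Known partners and targets were read from lists. Of the 16 genes on the list of MHC class II genes and partners of the Rfx5 complex, 15 were tested, and 0 were called by genotype or Tau. That list also held the MHC class I genes B2m, H2-K1 and H2-D1. For male KO Tau over male WT PBS, 12 of the 15 were higher and 3 lower, with a median log2 fold change of 0.30 against -0.0032 over all genes. The largest were H2-Aa (1.40, SE 0.66), Cd74 (1.24, SE 0.56), H2-Ab1 (1.21, SE 0.63) and H2-DMb1 (0.85, SE 0.29), all with adjusted p of 0.783 or more in edgeR, at mean levels of 0.947 to 7.08 CPM. In female KO Tau against female WT Tau 5 were higher and 10 lower, with a median of -0.06. In the same male comparison 8 of 8 choroid plexus markers were higher and none was called (median 3.85), with a summed level of 44.9 to 70.9 CPM in male WT PBS and of 56.2 to 4029 CPM in male KO Tau. The 6 microglia markers were also all higher (median 0.16), at 279.9 to 316 CPM and 289 to 385 CPM, and none of either list was at 0 in any library. The part of these cells in the MHC values was not tested. H2-Aa and H2-Ab1 encode MHC class II chains, and Cd74 and H2-DMb1 encode chaperones of MHC class II. In females against males under Tau, 3 list members were called, 20% of the 15 beside 23.8% of all genes. These were B2m (0.52), which encodes the light chain of MHC class I, H2-K1 (0.36), an MHC class I heavy chain, and Nfyc (-0.45), a subunit of a CCAAT-binding factor.

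All 27 genes of the intraflagellar transport and BBSome list were tested, and 0 were called by genotype or Tau. For male KO Tau over male WT PBS 12 were higher and 15 lower, with a median log2 fold change of -0.01. The largest values there were 0.38 for Ift43 (SE 0.15), 0.35 for Ift27 (SE 0.15), 0.26 for Ift20 (SE 0.10) and -0.20 for Ttc21b (SE 0.10). In females against males under Tau, Ift46 (-0.35), Ift122 (-0.36), Ift172 (-0.33) and Bbs9 (-0.54) were called lower and none higher, 14.8% of the list beside 23.8% of all genes.

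Of the 25 motile cilia genes 22 were in the table and 21 passed the filter in the male fit. For male KO Tau over male WT PBS 13 were higher and 8 lower, with a median of 0.05 and none called. In male WT Tau against male WT PBS 18 were higher and 3 lower (median 0.46), and in male KO PBS against male WT PBS 14 were higher and 7 lower (median 0.52). In male KO Tau against male WT Tau 5 were higher and 16 lower (median -0.34), again with none called. The 8 ependyma markers, of which Foxj1, Cfap126 and Hydin are on both lists, went 8 higher, 8 higher and 7 lower in these 3 comparisons. The largest values for male KO Tau over male WT PBS were Cfap126 (1.36, SE 0.39), Dnah6 (0.82, SE 0.49), Armc4 (0.81, SE 0.73) and Cfap52 (-0.67, SE 0.69), at mean levels of 0.508 to 3.87 CPM. In females against males under Tau, Tekt4 (1.67) was called higher and Cfap52 (-1.80) lower, 9.09% of the 22 tested. The ependyma markers summed to 7.23 to 18.4 CPM in male WT PBS, 24.5 to 36.3 CPM in male WT Tau, 13.1 to 35.8 CPM in male KO PBS and 14.6 to 26.9 CPM in male KO Tau, with Tmem212 at 0 in 1 library, and their part in these values was not tested.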

How the data were processed

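The authors deposited 1 table of raw gene counts per library. Per the labels and the study's methods, reads were aligned to GRCm38 (mm10) with STAR 2.5.2, handled with SAMtools 1.1 and counted per gene with HTSeq 0.9.1 set to the reverse strand. The labels state that the tissue was perfused with paraformaldehyde, which the study's methods give only for histology. The named kit is not said to mark strand, so reads of Rfx1, Rfx5, Rfx7, Rfxank and Prox1, whose exons overlap a gene on the opposite strand, may include that gene's. Here the counts were tested with edgeR 4.0.16 in R 4.3.3 (TMM factors, filterByExpr with min.count 10 and min.total.count 15, quasi-likelihood F-test, Benjamini-Hochberg over all genes tested, called at 0.05) in fits of the 12 male libraries, the 11 Tau libraries or all 17 libraries. DESeq2 1.42.0 was an alternative. CPM divide by the total counts of a library; log2 CPM for relations used TMM and a prior count of 2. A score is the mean log2 CPM of a marker list. SE is the fold change over the root of F. Exact permutations exchanged libraries within groups (15552 arrangements) or labels within strata (4000 or 400). Annotation was GENCODE vM21; lengths are the union of exons. The fits were tested on simulated data. Replicates are separate libraries with numbers in their titles, taken here as separate animals, and p-values measure the spread between them.

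Totals per library, 14183131 to 22463635, limit the precision of low genes. The members, lists and motif searches were chosen with earlier results of these data known. Named genes were the 8 members, Prox1, Acss2, the 3 genes most correlated with a member, and up to 4 genes per list with the largest change for male KO Tau over male WT PBS. Called list genes outside that rule are named after their values were seen.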

Additional observations from a re-analysis of the deposited data

How the results depend on the processing

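No paired analysis was possible because the replicate numbers differ between all groups. The called slope of Rfx3 on Prox1 kept its direction and its side of the threshold under RLE factors, no filter on low counts, the 12 male libraries, the dentate granule score in place of Prox1 and each library left out in turn.

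With Prox1 as a covariate the uncalled log2 fold change of Rfx3 turned to 0.19 (male KO Tau against male WT PBS), 0.18 (against male WT Tau), 0.066 (females) and 0.064 (3 strata). With the dentate granule score it turned to 0.099, 0.053, 0.057 and 0.058, and to 0.058 in male KO PBS against male WT PBS. The stratified difference after the slope on Prox1 turned to 0.052 for Rfx3 and -0.00446 for Rfxank. DESeq2 without male KO Tau 711 turned Rfx4 to -0.092 against male WT Tau and -0.055 against male KO PBS; with Prox1 added after seeing the data, Rfx4 was -0.29 and -0.031 and Rfx5 0.041 against male WT Tau. Without male KO PBS 751 and 752 the slope of Rfxap on Prox1 was -0.045. Without the 2 libraries lowest in Prox1, a setting chosen after seeing the data, r of Rfx2 with Prox1 was -0.013. Without removing group means, r of Rfx2 with Prox1 was 0.518 and passed (permutation p = 0.0326). The cause of these changes was not tested.

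Leaving out 1 library each, the log2 fold change ran from -0.91 to 0.25 for Rfx3 in male KO PBS against male WT PBS, -0.62 to 0.047 for male KO Tau over male WT PBS and -0.46 to 0.058 in females. It ran from -0.095 to 0.76 for Rfx2 and -0.034 to 0.29 for Rfx5 in females. For Rfx4 it ran from -0.053 to 0.34 in male KO Tau against male KO PBS, -0.091 to 0.30 against male WT Tau and -0.039 to 0.12 over 3 strata, where Rfx2 ran from -0.093 to 0.19. Slopes on Prox1 ran from -0.0076 to 0.10 for Rfx5 and -0.029 to 0.13 for Rfxap, and r from -0.0459 to 0.528 and -0.266 to 0.728.

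Genes called under DESeq2 were 2, 15, 4 and 37 for male KO PBS and KO Tau against WT PBS, KO Tau against WT Tau and KO Tau against KO PBS, 1 for Tau against PBS, 1 for the sex by genotype interaction and 3 over 3 strata. DESeq2 on only the groups compared, an alternative chosen after seeing the data, called 11 in male WT Tau against WT PBS, 4, 22 and 28 in the male KO PBS and KO Tau comparisons with WT, and 4 in females. Without male KO Tau 711 it called 1029, 1378 and 14 against WT PBS, WT Tau and KO PBS, and with Prox1 also 133, 127 and 21. Prox1 as a covariate gave 2 for KO Tau against WT PBS and 2 over 3 strata, all 17 libraries in 1 fit gave 3 for KO Tau against WT PBS, and edgeR on the females alone 0. With 1 library left out, calls ran from 628 (without female WT Tau 331) to 6290 (without male KO Tau 711) by sex, 0 to 1 in females and 1 to 2 over 3 strata. Slopes called ran from 605 to 2801 on Prox1, and from 163 to 1875, 575 to 2324, 141 to 3191, 1268 to 2990 and 1118 to 3123 on the CA2, CA3, astrocyte, inhibitory neuron and neocortex scores; the count of genes called in slope of genes on Prox1 was 3252 with the male libraries alone and 1058 with the dentate granule score. In females against males 0 of the other settings that kept every library lost the calls of Rfx1 or Rfxap. At 23 to 88 counts per library, depth limits Rfx2 most.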

Other observations

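Rfx8, the other RFX family gene with counts, had a mean of 0.267 CPM for male KO Tau and of 0.548 CPM for male WT PBS, a fitted log2 fold change of -1.08 (SE 0.53, adjusted p = 0.807 by edgeR), on 3 to 15 counts per library. The genes most like the remaining members over the 17 libraries were Odf2 (r 0.908) for Rfx1, Phc2 (0.970) for Rfx2, Tprkb (0.946) for Rfx4, Kdm3a (0.943) for Rfx7, 2810025M15Rik (0.933) for Rfxank and Smim24 (0.922) for Rfxap.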
